A study of Mus musculus with 6 samples.

Results

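In cultured lung ILC2s, 17 of the 18122 genes counted were separated between wild-type (WT) mice and mice with a targeted Icos allele (ICOS KO) by a gap of 3-fold or more between the nearest libraries. The 17 were chosen by their own levels, as counts per 1000000 of the library total (CPM). A gene was taken when its mean in one genotype was at least 3 CPM and its lowest library there was at least 3 times the highest library of the other genotype. Of 44 genes past this gap, 27 that belong to other named groups, such as antigen receptor segments and mast cell proteases, were left out by symbol. Of the 17 that remained, 15 had lower levels in ICOS KO and 2, Otud3 and Lyplal1, had higher levels. Epx met the rule only because 1 WT library and all ICOS KO libraries had no read of it. Because these values chose the genes, the difference between genotypes is described here and not tested.

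Group 2 innate lymphoid cells (ILC2s) are tissue lymphocytes without antigen receptors that release type 2 cytokines when epithelial alarmins reach them. ICOS is a co-stimulatory receptor on these cells that signals mainly through phosphoinositide 3-kinase. The 17 genes are not a pathway. They encode ubiquitin enzymes, a mitochondrial dehydrogenase, cytoskeletal proteins, lipid and G protein signalling proteins, membrane proteins and secreted or granule proteins, and 2 of them are transcripts with no established protein.

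The series holds 6 libraries of sorted mouse lung ILC2s whose RNA was taken after culture, 3 per genotype. The labels name the WT genotype BALB/C BYJ and the ICOS KO genotype C.129S4-Icostm1Shr/J, and give no age, culture time or stimulus. The strains differ in name as well as in the Icos allele, so loss of Icos and strain DNA cannot be told apart in this design. The labels do not say if each library had its own mouse or culture, and the spread that p-values rest on may therefore be technical.

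Library totals ran from 13738062 to 18736474 estimated counts, which puts 3 reads at 0.16 to 0.218 CPM in one library and at 0.0574 CPM over the WT group or 0.0694 CPM over the ICOS KO group. These floors cover counting error only. Icos itself (chromosome 1, 60977927 to 61000320, GRCm38) had 447, 469 and 511 CPM in the WT libraries and 139, 162 and 158 CPM in the others, and its gap of 2.76 kept it just outside the list. The ILC2 marker list (12 genes, among them Gata3, Il1rl1 and Il5) summed to 11401 to 12664 CPM in WT and 10846 to 11926 CPM in ICOS KO, a sum to which Il5 gave the most (6597 ± 549 and 5912 ± 417 CPM). Of these 12 genes, edgeR called Klrg1, Areg and Il1rl1 higher in ICOS KO and Icos and Rora lower. The library of ICOS KO replicate 2 lay farthest out on the first principal component, and the ratios of Dnah17, S1pr3, Sema6d and Chil1 are given with and without it because they moved the most among members with reads in both genotypes.

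A 3-fold gap was rare at this level. Before any gene was left out by symbol, 30 of 10746 genes with a WT mean of at least 3 CPM (0.279%) passed it with lower values in ICOS KO, and 14 of 10680 genes with an ICOS KO mean of at least 3 CPM (0.131%) passed it with higher values. The omission by symbol removed 15 of the 30 and 12 of the 14, so the balance of 15 to 2 among the members depends on it. With the named groups left out of the total as well, the members were 0.14% of 10682 and 0.0189% of 10609 genes. Complete separation of the libraries without regard to its size was found for 18.6% and 8.84% of the genes in these smaller totals, from which the counts that follow are also taken. The smallest gaps inside the limit were those of G530011O06Rik (3.26), Rfwd3 (3.33) and Ldhd (3.35). The largest outside it were those of Angptl2 (2.84), St6gal1 (2.80) and Gm19585 (2.79). A further 37 genes had a gap between 2 and 3 with lower values in ICOS KO and 10 with higher values, so the limit cuts a continuous tail.

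**Figure D1:**
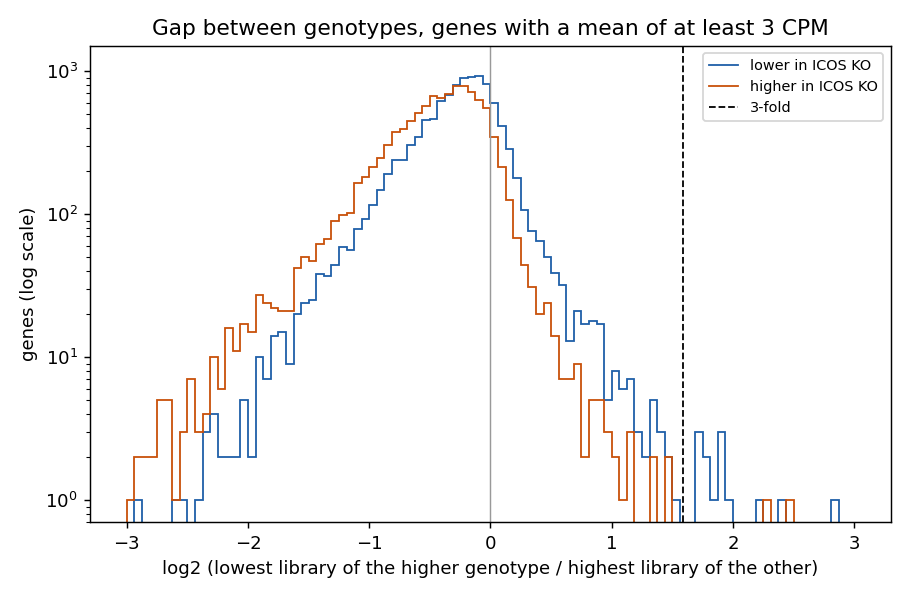
Histogram of the gap between genotypes, as the log2 ratio of the lowest library of the higher genotype to the highest library of the other, for genes that reach a mean of 3 CPM in the higher genotype, have a read in the other and were not left out by symbol. Colours separate genes by direction, the vertical axis is logarithmic, and the dashed line marks 3-fold. Most genes lie left of 0, where libraries of the genotypes overlap.

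Across all genes, edgeR's quasi-likelihood test called 3.29% of 13691 tested genes at an adjusted p of 0.05, 2.01% lower and 1.29% higher in ICOS KO. Of the 17 members, 14 were among the lower calls and 2 among the higher ones, and Epx did not pass the test's filter on low counts. The same contrast chose the members, so nothing is read from that count. Lists of relatives below also count the member among their calls and in their medians. The share of 3.29% is therefore the one to set beside the other genes of each list.

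**Figure D2:**
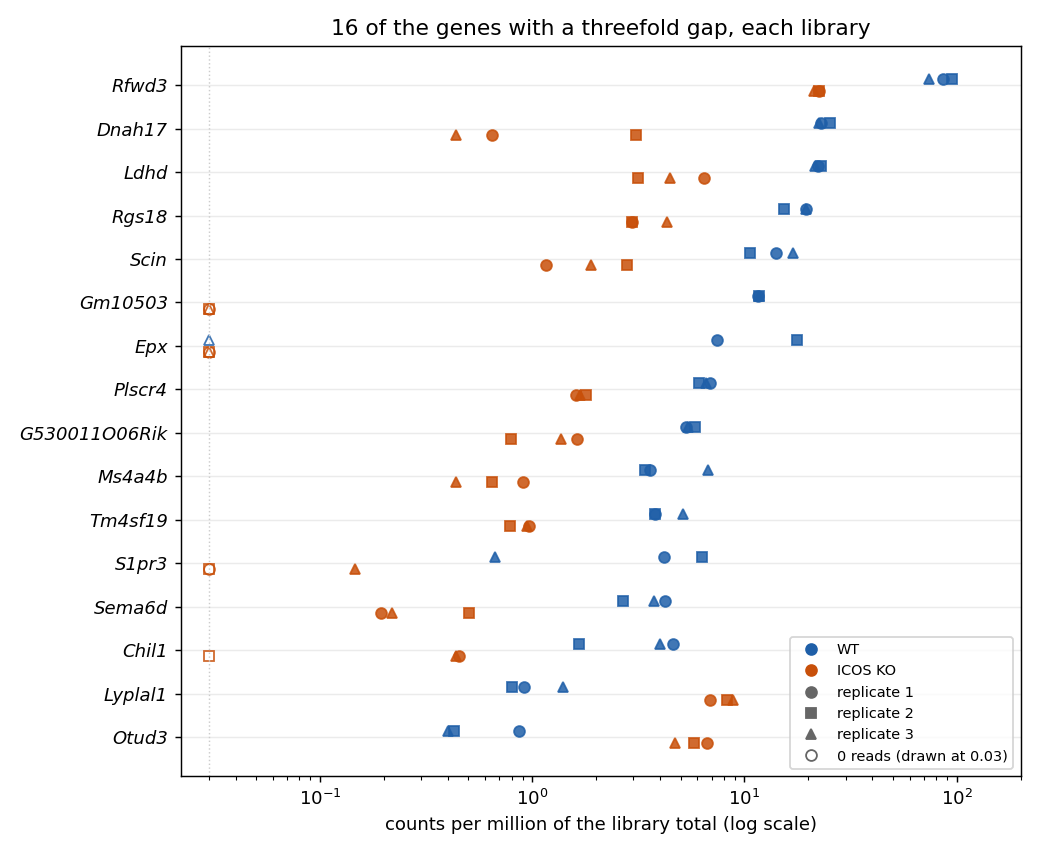
Each point is one library's level of 1 of 16 members in CPM on a logarithmic axis, with colours for genotypes and marker shapes for replicate numbers. Open symbols stand for libraries with no read. The genotypes are separated in every row but that of Epx, where WT replicate 3 had no read, as in the ICOS KO libraries.

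Both genes with higher levels in ICOS KO were scarce in WT. Otud3 encodes a deubiquitinase of the OTU family, which removes ubiquitin chains from its substrates (chromosome 4, 138895379 to 138913945). Its WT libraries held 0.864, 0.427 and 0.401 CPM, from 16, 8 and 6 reads, and its ICOS KO libraries 6.63, 5.81 and 4.73 CPM. Means of 0.564 ± 0.26 and 5.72 ± 0.951 CPM (SD, n = 3 each) gave a ratio of 10.1. Every ICOS KO library was thus several times above every WT library, while a low WT level remained measurable.

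Lyplal1, a serine hydrolase related to the acyl-protein thioesterases, lies on chromosome 1 (186087731 to 186117310), 125 Mb from Icos. Levels of 0.918, 0.801 and 1.4 CPM in WT contrasted with 6.88, 8.24 and 8.81 CPM across ICOS KO. From means of 1.04 ± 0.319 and 7.98 ± 0.989 CPM (SD, n = 3 each) came a ratio of 7.67.

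Relatives of these 2 genes were counted together with the member itself. Of 13 tested OTU deubiquitinase genes, Otud3 was called higher and Tnfaip3 lower, with a median log2 fold change of -0.22 against 0.00 over all tested genes. Tnfaip3, whose product A20 restrains NF-kB signalling, fell in mean from 18.6 ± 2.31 to 10.4 ± 1.85 CPM (edgeR adjusted p = 0.0461). Of 9 tested thioesterase genes, Lyplal1 was called higher and Ppt2, which encodes a lysosomal thioesterase, lower, with a median of 0.08. Ppt2 had means of 25.6 ± 3.23 and 15.6 ± 1.77 CPM (edgeR adjusted p = 0.0472). The nearest relatives Lypla1 (61.1 ± 2.19 and 56.8 ± 3.15 CPM; edgeR adjusted p = 0.864) and Lypla2 (157 ± 11.7 and 161 ± 11.3 CPM; edgeR adjusted p = 0.579) did not pass. The Tnfaip3 and Ppt2 calls were each lost under 7 of 13 alternatives, namely voom, no filter on low counts and every omission of a library except that of ICOS KO replicate 1, with adjusted p reaching 0.211 and 0.235 over edgeR, voom and DESeq2.

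The promoters of Otud3 and Lyplal1 are shown because these are the only members with higher levels in ICOS KO, and those of Rfwd3 and Ldhd because these genes lie near each other on chromosome 8 and were both lower. Each is RefSeq's window of 300 bases on the gene's strand (GRCm38.p6), from 250 before the transcription start to 50 after it, at chr4:138913919-138914218, chr1:186117261-186117560, chr8:111300173-111300472 and chr8:111630287-111630586, all on the minus strand. Capitals mark matches on either strand to the GC box (GGGCGG), the CCAAT box (CCAAT) or the E-box (CACGTG), which do not overlap each other here.
Otud3: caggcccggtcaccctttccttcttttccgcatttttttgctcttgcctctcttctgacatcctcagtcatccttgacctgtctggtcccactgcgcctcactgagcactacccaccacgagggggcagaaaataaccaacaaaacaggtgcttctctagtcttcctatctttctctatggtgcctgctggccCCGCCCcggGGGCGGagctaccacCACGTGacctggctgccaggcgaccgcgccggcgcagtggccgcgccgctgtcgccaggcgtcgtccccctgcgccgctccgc
Lyplal1: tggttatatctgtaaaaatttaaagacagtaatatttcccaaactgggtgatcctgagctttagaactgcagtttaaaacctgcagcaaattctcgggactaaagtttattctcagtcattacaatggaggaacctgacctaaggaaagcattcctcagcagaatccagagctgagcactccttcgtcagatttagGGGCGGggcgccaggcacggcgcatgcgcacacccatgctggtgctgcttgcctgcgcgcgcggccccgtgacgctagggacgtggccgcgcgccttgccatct
Rfwd3: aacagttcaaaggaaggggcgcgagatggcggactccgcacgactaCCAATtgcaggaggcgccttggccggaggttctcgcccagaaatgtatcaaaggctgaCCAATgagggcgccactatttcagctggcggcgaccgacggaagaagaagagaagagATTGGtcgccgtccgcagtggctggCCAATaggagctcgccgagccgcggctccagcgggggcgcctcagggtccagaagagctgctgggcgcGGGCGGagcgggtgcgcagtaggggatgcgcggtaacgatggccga
Ldhd: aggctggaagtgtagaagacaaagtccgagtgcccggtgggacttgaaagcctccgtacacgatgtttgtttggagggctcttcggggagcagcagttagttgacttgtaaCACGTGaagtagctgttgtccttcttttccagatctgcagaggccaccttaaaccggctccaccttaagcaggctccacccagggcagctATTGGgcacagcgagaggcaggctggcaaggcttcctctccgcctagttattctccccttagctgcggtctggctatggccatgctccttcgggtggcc
RefSeq gave a window for 14 of the 17 members. Otud3 has 2 GC boxes and, starting 33 bases before its start site, an E-box. The last bases of the Otud3 window are in no GENCODE transcript of the gene, unlike those of the other windows shown, so its distances rest on RefSeq's start site. Lyplal1 has 1 GC box, Rfwd3 has 4 CCAAT boxes and 1 GC box, and Ldhd has 1 CCAAT box and, 139 bases before its start site, an E-box. Of 32544 promoter windows of this length, 35.9% hold the GC box, 37.4% the CCAAT box and 7.17% the E-box, against 7, 4 and 3 of the 14 members. The third member with an E-box is Sema6d. Of the other motifs searched on both strands, the GATA motif (AGATAA) occurred in 2 of the 14 against 11.2% of all windows, and the AP-1 motif (TGANTCA) in 1 against 7.79%. The STAT motif (TTCNNNGAA) occurred in none against 8.33%. These matches are letters in a window and say nothing about binding.

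Among the 15 genes with lower levels in ICOS KO, Rfwd3 encodes a RING ubiquitin ligase that acts on replication protein A during repair of crosslinked DNA (chromosome 8, 111270944 to 111300222). Its level was 86.2, 95 and 74.5 CPM across WT and 22.4, 22.4 and 21.2 CPM across ICOS KO. Their means, 85.2 ± 10.3 and 22 ± 0.667 CPM (SD, n = 3 each), gave a ratio of 3.88, and the ICOS KO libraries spanned only 1.05-fold. Of 17 tested genes of a replication protein A and Fanconi anaemia list, Rfwd3 alone was called, with a list median log2 fold change of -0.08. The gene of its substrate, Rpa1 (314 ± 24.8 and 286 ± 25.1 CPM; edgeR adjusted p = 0.725), did not pass.

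Ldhd encodes the mitochondrial D-lactate dehydrogenase, which turns D-lactate into pyruvate. It lies 324 kb from Rfwd3 on the same strand (chromosome 8, 111623785 to 111630374), and these were the only members within 1 Mb of each other. WT levels of 22.1, 23 and 21.5 CPM compared with 6.42, 3.17 and 4.44 CPM in the ICOS KO libraries. Means of 22.2 ± 0.737 and 4.68 ± 1.64 CPM (SD, n = 3 each) gave a ratio of 4.74. Genes between them had smaller ratios and were not called, among them Mlkl, 11.6 kb from Rfwd3 (83 ± 7.75 and 74.9 ± 2.62 CPM; edgeR adjusted p = 0.694), and Wdr59, 102 kb from Ldhd (14.5 ± 2.15 and 9.12 ± 2.22 CPM; edgeR adjusted p = 0.16). Ldhd overlaps Znrf1 (314 ± 27.8 and 256 ± 23.9 CPM; edgeR adjusted p = 0.254) on the opposite strand, and no strand setting of the counting is given, so reads of this pair may have been shared.

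D-lactate is the end product of the glyoxalase pathway, in which Glo1 and then Hagh act on methylglyoxal. Glo1 had 628, 630 and 613 CPM across WT, compared with 236, 244 and 225 CPM across ICOS KO. It fell by 1.34 ± 0.09 on the log2 scale (SE derived from the test statistic, edgeR adjusted p = 1.16e-05), a call kept under all 13 alternatives. Hagh (51.3 ± 2.25 and 43.3 ± 0.864 CPM; edgeR adjusted p = 0.394) did not pass, and nor did Ldha (5167 ± 175 and 5517 ± 464 CPM; edgeR adjusted p = 0.249), the main L-lactate dehydrogenase gene of glycolysis. Of the 5 tested genes on this list, Ldhd and Glo1 were called lower and none higher. The list was drawn up after the members' values were seen. Glo1 overlaps Dnah8, which was also called lower, and a link between Glo1 and Ldhd was not tested.

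Cytoskeletal members were Dnah17 and Scin. Dnah17 encodes an axonemal dynein heavy chain, a motor of cilia and sperm tails (chromosome 11, 118021723 to 118130634). It was even across WT, at 22.8, 25.4 and 22.4 CPM, and low in ICOS KO, at 0.643, 3.08 and 0.437 CPM with replicate 2 the highest. Means of 23.6 ± 1.61 and 1.39 ± 1.47 CPM (SD, n = 3 each) gave a ratio of 17 that became 43.6 without ICOS KO replicate 2. Its gap of 7.28 was the largest among members with reads in both genotypes. Pgs1, which overlaps it on the opposite strand, had means of 246 ± 18.8 and 249 ± 16.9 CPM (edgeR adjusted p = 0.659).

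Few axonemal relatives were measured. Of 15 listed axonemal dynein heavy chain genes 7 were in the table and 3 were tested, and Dnah17 and Dnah8 were called lower. The Dnah8 mean fell from 87.3 ± 10.6 to 40.8 ± 1.55 CPM (edgeR adjusted p = 0.000876). Dnah8 overlaps Glo1 on chromosome 17 (30624354 to 30877365 and 30584936 to 30626871). By these positions the pair overlaps only at the end of Glo1 and the start of Dnah8, and reads of that stretch may have been shared. Their calls may not be independent. For this pair too, loss of Icos and strain DNA cannot be told apart. The third tested gene, Dnah14 (2.16 ± 0.357 and 3.37 ± 0.885 CPM; edgeR adjusted p = 0.309), was not called. Of 8 listed ciliated cell markers 3 were in the table and edgeR called none, nor was any at an unadjusted p under 0.05 or called by DESeq2 or voom, among them Rsph1 (3.65 ± 1.37 and 4.64 ± 0.891 CPM; edgeR adjusted p = 0.526).

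Scin encodes scinderin, a calcium-dependent actin-severing protein of the gelsolin family (chromosome 12, 40059769 to 40134228). Against 14.1, 10.6 and 17 CPM across WT, the ICOS KO libraries had 1.16, 2.8 and 1.89 CPM. Means of 13.9 ± 3.24 and 1.95 ± 0.82 CPM (SD, n = 3 each) gave a ratio of 7.14. Of 6 tested genes of the gelsolin and villin family Scin alone was called, and its relatives Gsn (544 ± 45 and 455 ± 81.4 CPM; edgeR adjusted p = 0.367) and Capg (1565 ± 17.5 and 1333 ± 77.4 CPM; edgeR adjusted p = 0.26) did not pass.

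S1pr3 and Rgs18 belong to G protein signalling. S1pr3 is a receptor of the lipid sphingosine-1-phosphate (chromosome 13, 51408639 to 51422797). WT levels were 4.16, 6.3 and 0.668 CPM, a 9.43-fold range, and ICOS KO levels 0, 0 and 0.146 CPM. Replicate 3 was far below the other WT libraries. In all, 205 reads in WT stood against 2 in ICOS KO, and the ratio of mean CPM was 76.4. For the pooled reads scaled by library totals, the exact 95% counting interval was 23.2 to 705, which leaves out the spread between libraries. Without WT replicate 2 the ratio was 49.7 and the WT mean no longer reached 3 CPM. It was 50.9 without ICOS KO replicate 1 or 2. Without ICOS KO replicate 3 no ICOS KO read remained, and the WT mean was at least 36.5-fold higher than a floor of 3 reads in the libraries left.

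The remaining genes of the sphingosine-1-phosphate list were not called, with 7 tested. They include the lymphocyte trafficking receptor S1pr1 (23.9 ± 2.28 and 20.9 ± 0.366 CPM; edgeR adjusted p = 0.631) and S1pr4 (39.8 ± 2.13 and 38.1 ± 2.65 CPM; edgeR adjusted p = 0.999).

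Rgs18 encodes a regulator of G protein signalling known from platelets and myeloid cells (chromosome 1, 144752683 to 144775435, 83.8 Mb from Icos). Levels of 19.4, 15.4 and 19.4 CPM across WT compared with 2.96, 2.94 and 4.29 CPM across ICOS KO. Their means, 18.1 ± 2.32 and 3.4 ± 0.777 CPM (SD, n = 3 each), gave a ratio of 5.33. Of 5 tested genes of its family (R4), Rgs18 was called lower and Rgs1, also on chromosome 1, higher. The Rgs1 mean rose from 312 ± 43.1 to 426 ± 10.9 CPM (edgeR adjusted p = 0.0241), a call lost without WT replicate 1, WT replicate 2, ICOS KO replicate 2 or ICOS KO replicate 3 (edgeR adjusted p up to 0.164).

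The membrane proteins were Sema6d, Plscr4, Tm4sf19 and Ms4a4b. Sema6d is a transmembrane semaphorin that binds plexin-A receptors (chromosome 2, 124089969 to 124667770). Its WT libraries had 4.21, 2.67 and 3.74 CPM and its ICOS KO libraries 0.193, 0.502 and 0.218 CPM, the latter from 3, 7 and 3 reads, and the ratio of means was 11.6, or 17.2 without ICOS KO replicate 2. Of 7 tested genes of the semaphorin and plexin list Sema6d alone was called, and the receptor gene Plxna1 (27.8 ± 4.02 and 17.5 ± 3.77 CPM; edgeR adjusted p = 0.0988) did not pass.

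Plscr4 encodes a phospholipid scramblase, a family linked to movement of lipids between membrane leaflets (chromosome 9, 92457373 to 92492456). Levels of 6.91, 6.14 and 6.61 CPM across WT stood above 1.61, 1.79 and 1.67 CPM across ICOS KO, with little spread in either. Means of 6.55 ± 0.39 and 1.69 ± 0.093 CPM (SD, n = 3 each) gave a ratio of 3.87. Plscr1, an interferon-inducible relative 185 kb away, fell in mean from 131 ± 4.4 to 75.4 ± 2.49 CPM (edgeR adjusted p = 0.00133), a call kept under all 13 alternatives.

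Tm4sf19 encodes a tetraspan membrane protein (chromosome 16, 32400506 to 32408227). Its 3.78, 3.79 and 5.14 CPM across WT compared with 0.965, 0.788 and 0.946 CPM across ICOS KO, a ratio of means of 4.71, and it was the only gene of its family list that was tested. Ms4a4b, an MS4A membrane protein known from T cells (chromosome 19, 11443553 to 11467055), had 3.58, 3.42 and 6.76 CPM in the WT libraries, compared with 0.901, 0.645 and 0.437 CPM, a ratio of 6.94. In both genes WT replicate 3 was the highest library. Of 4 tested MS4A genes Ms4a4b alone was called, and Ms4a6b (6.92 ± 1.67 and 7.1 ± 2.87 CPM; edgeR adjusted p = 0.881), 49.5 kb from it, did not pass. The T cell genes Cd4 and Cd8a were at 0.868 CPM or less in every library, while the T cell list summed to 269 to 319 CPM in WT and 383 to 461 CPM in ICOS KO, with 2 of 7 tested genes called higher and 1 lower.

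The secreted and granule proteins were more uneven. Chil1 is a chitinase-like lectin known from type 2 airway inflammation (chromosome 1, 134182176 to 134190181). Its WT libraries had 4.59, 1.65 and 4.01 CPM and its ICOS KO libraries 0.45, 0 and 0.437 CPM, from 176 and 13 reads in all, a ratio of means of 11.6 that became 7.7 without ICOS KO replicate 2, its only library with no read. Without WT replicate 1 its WT mean was under 3 CPM and it left the list. Of 5 tested genes of the chitinase list Chil1 alone was called, and Chil3 (427 ± 164 and 311 ± 53.6 CPM; edgeR adjusted p = 0.343) overlapped between genotypes.

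Epx encodes eosinophil peroxidase (chromosome 11, 87864000 to 87875536) and met the rule only in form. WT libraries had 7.45, 17.6 and 0 CPM and no ICOS KO library had a read, so WT replicate 3 was level with ICOS KO. With a floor of 3 reads set for the ICOS KO group, the WT mean was at least 120-fold higher, a bound that became 53.7 without WT replicate 2 and 77.1 without ICOS KO replicate 1. Of 7 genes in the table on the list of peroxidase and eosinophil granule genes, Epx, Mpo, Prg2, Prg3 and Ear1 were highest in WT replicate 2. Ear6 was highest in WT replicate 1 (0.81, 0.747 and 0.401 CPM across WT, no read in ICOS KO), and Ear2 in ICOS KO replicate 1, with 1.94, 1.33 and 1.47 CPM in WT and 3.47, 1.51 and 2.33 CPM in ICOS KO. Prg2, an eosinophil granule gene, had 8.64, 25 and 0.134 CPM across WT, compared with 0.386, 0 and 0.51 CPM. The neutrophil peroxidase gene Mpo, 59.6 kb from Epx, had 3.29, 34 and 2.0 CPM, compared with 1.99, 0 and 0.0728 CPM (edgeR adjusted p = 0.0909). Elane, a neutrophil protease gene, had 0.054, 3.47 and 0.0668 CPM and no read in ICOS KO. Elane too was highest in WT replicate 2. Of the list of peroxidase and eosinophil granule genes only 2 could be tested, and edgeR called neither (1 at an unadjusted p under 0.05, none by DESeq2 or voom).

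**Figure D3:**
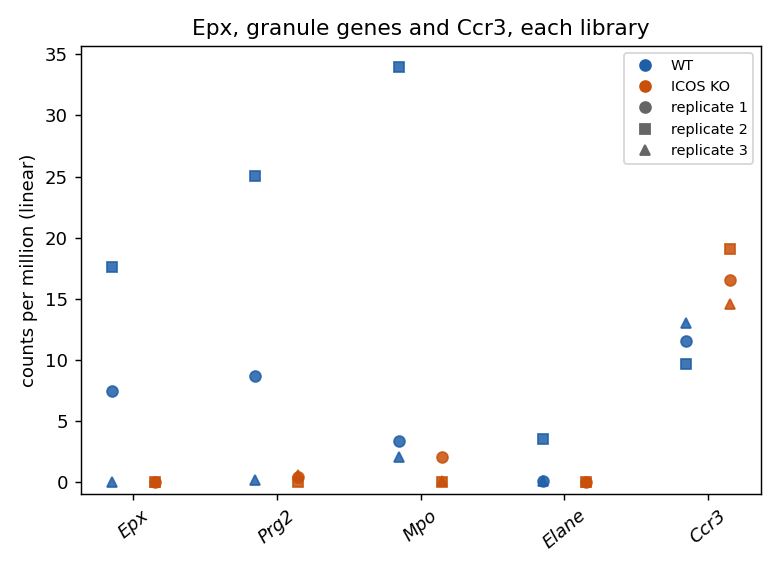
Levels of single genes in CPM on a linear axis for each library, with colours for genotypes and marker shapes for replicate numbers. Epx and Prg2 are high in WT replicates 1 and 2 and near 0 in WT replicate 3 and in ICOS KO, Mpo and Elane peak in WT replicate 2, and Ccr3 is present in all 6 libraries.

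The last members are transcripts with no established protein. Gm10503 is a predicted gene without a match in GENCODE M21. It had 11.6, 11.7 and 11.7 CPM across WT, the most even WT values of any member, and no read in any ICOS KO library. Against 3 reads as the floor for that group it was at least 168-fold higher in WT, and at least 108-fold without ICOS KO replicate 1. G530011O06Rik is a processed transcript (chromosome X, 169975043 to 169978917) that overlaps Mid1 on the opposite strand. WT libraries had 5.3, 5.84 and 5.45 CPM of it and ICOS KO libraries 1.63, 0.791 and 1.36 CPM, a ratio of 4.39, while Mid1 (3.86 ± 0.619 and 2.41 ± 0.871 CPM; edgeR adjusted p = 0.363) was not called. RefSeq also places a promoter of G530011O06Rik on chromosome Y, so its reads may come from more than 1 copy.

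The members were chosen for a large gap, so genes next to them are set against all tested genes and not against the members. Of 16 members with a known position, 13 had other genes within 250 kb with a mean of at least 3 CPM in a genotype. These 60 genes had a median log2 ratio of -0.19, against -0.07 over all tested genes on the same scale. Of the 60, edgeR called 2 higher and 1, Plscr1, lower, where 1.29% and 2.01% of all 13691 tested genes were called so. With so few calls nothing is read from their number. The higher ones were Socs3, 51.7 kb from Dnah17 (256 ± 21.9 and 379 ± 50.1 CPM; edgeR adjusted p = 0.0084), and Arl4a, 21.7 kb from Scin (66.9 ± 4.2 and 105 ± 18.5 CPM; edgeR adjusted p = 0.0136). Neither call held without WT replicate 1 or without ICOS KO replicate 3, and that of Arl4a was lost also without WT replicate 2 (edgeR adjusted p up to 0.0543 and 0.0897). The 16 placed members lay on 12 chromosomes. The 3 on chromosome 1 were at least 73.2 Mb from Icos, and none was within 10 Mb of it. Genes left out by symbol, for which the rule names Bmpr2 among others, were not placed. The distances therefore do not show whether a gene with such a gap lies near Icos.

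**Figure D4:**
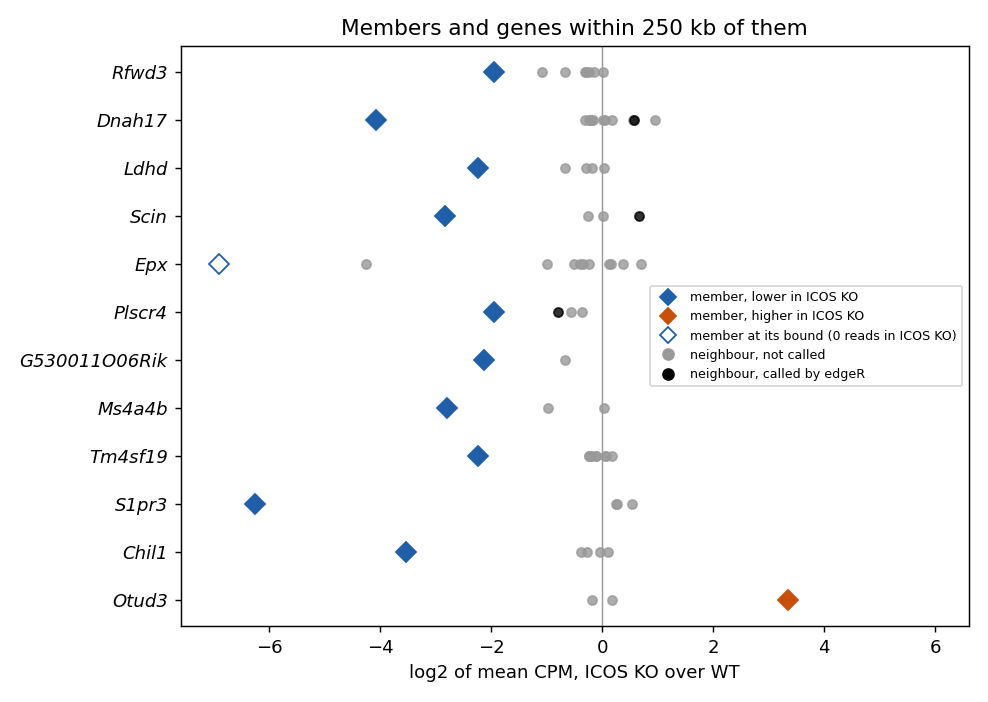
Log2 ratio of mean CPM, ICOS KO over WT, for 12 members (diamonds) and for the genes within 250 kb of each with a mean of at least 3 CPM (circles, black where edgeR called them). The members lie to either side, as the rule that chose them requires. Most neighbours, which were not chosen by level difference, gather around 0, apart from Mpo beside Epx at -4.25.

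Estimated counts need not be whole, for example where a read is divided between features. Of the 17 members 12 had whole counts (within 0.01) in all 6 libraries, compared with 55.6% of 11011 genes with a mean of at least 3 CPM in a genotype. The exceptions were Ldhd, Rfwd3, G530011O06Rik, Ms4a4b and Gm10503.

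Markers of other cell types also differed between genotypes, in both directions. The mast cell and basophil list summed to 362 to 422 CPM in WT and 58.1 to 72.1 CPM in ICOS KO, and 7 of its 9 tested genes were called lower and none higher, while Kit (20.7 ± 1.6 and 19.8 ± 2.95 CPM; edgeR adjusted p = 0.998) was not called. The eosinophil list, which holds Epx, summed to 16.1 to 55.7 CPM in WT and 19.1 to 20.9 CPM in ICOS KO with none of 3 tested genes called by edgeR, DESeq2 or voom and 1 at an unadjusted p under 0.05, among them Ccr3 (11.4 ± 1.71 and 16.7 ± 2.26 CPM; edgeR adjusted p = 0.107). The neutrophil list summed to 6.21 to 42.9 CPM in WT and 4.37 to 9.2 CPM in ICOS KO. Of its 5 tested genes none was called by edgeR or voom, 1 was called by DESeq2 and 2 had an unadjusted p under 0.05. Its highest sum was that of WT replicate 2, where Mpo gave 34 CPM. Csf3r went the other way from Mpo, with 0.54, 0.213 and 0.134 CPM in WT and 2.83, 1.08 and 1.53 CPM in ICOS KO (edgeR adjusted p = 0.0564). S100a8, S100a9 and Ly6g overlapped between genotypes. The macrophage list summed to 379 to 765 CPM and 320 to 462 CPM with 1 of 7 called lower. Calls the other way were Cd79b, 1 of 5 tested B cell genes, Epcam, 1 of 6 epithelial genes, and Hba-a1, 1 of 2 erythroid genes. These lists had no gene called lower. Of 4 tested genes of natural killer cells and ILC1s, 1 was called higher and 2 lower. The part of such cells in the values of Rgs18, Scin, S1pr3, Chil1 and Epx was not tested, and in bulk libraries fewer cells of a type and less RNA per cell cannot be told apart.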

How the data were processed

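RNA of cultured, sorted mouse lung ILC2s was measured in 3 WT and 3 ICOS KO libraries made with a low-input cDNA kit, per the labels' protocols. The values are estimated counts per gene and library, which the authors deposited as a single table without normalization; 39.4% of them are not whole numbers. The submitters' processing notes name Partek 10.0, STAR 2.7.8, DESeq2 and the build mm10. How reads were assigned to genes, on which annotation and with which strand setting is not given in the sources used here. No molecular identifiers are named, so intervals cover counting error only. The design text speaks of duplicates, while the table holds 3 libraries per genotype, and all 6 were used.

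Levels are CPM of each library total, and the rule for members was applied to these. Rounded counts were tested with edgeR 4.0.16 (R 4.3.3, limma 3.58.1; quasi-likelihood, TMM, filterByExpr, Benjamini-Hochberg over 13691 genes, threshold 0.05, no covariates), as a background and for genes that are not members. Every pair of libraries differed by at least 8.36 chi-square units per degree of freedom, so none was a second copy of another.

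The members and lists were chosen with earlier results of these data known, and the DNA repair, lactate, sphingosine-1-phosphate, scramblase, RGS, MS4A, chitinase, semaphorin, TM4SF and granule lists after the members' values were seen. Of the 17 members 16 are described, and 1 is counted but not reported here. Relatives and neighbours are named where edgeR called them or as the closest or most abundant of their list that was not called, picked after their values were seen. Positions come from GENCODE M21 (GRCm38) and promoters from RefSeq (GRCm38.p6), matched by symbol. Alternatives were scaling by TMM or RLE, DESeq2 1.42.0, voom, other filters, other level and gap limits, a replicate block and each library left out.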

Additional observations from a re-analysis of the deposited data

How the results depend on the processing

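Scaling by TMM or RLE kept all 17 members. The 15 genes with lower and 2 with higher levels in ICOS KO became 223 and 72 with no minimum mean but at least 10 reads, 32 and 9 at a minimum mean of 1 CPM, 7 and 0 at 10 CPM, 52 and 12 at a 2-fold gap, and 4 and 1 at a 5-fold gap. Leaving out a library gave 18 to 26 lower and 2 to 7 higher genes, since fewer libraries have to clear the gap. Without ICOS KO replicate 2 they were 20 and 3. The lower count was 23, 26 and 24 without WT replicate 3, ICOS KO replicate 1 and ICOS KO replicate 3, and the higher count 5 and 7 without WT replicate 2 and ICOS KO replicate 1. Chil1 was lost without WT replicate 1 and S1pr3 without WT replicate 2. Requiring a read in every WT library, chosen after seeing the data, removed Epx and left 14.

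Over all genes edgeR called 451 (176 higher, 275 lower), DESeq2 929 and edgeR with the replicate block 784; with library totals alone the split was 127 higher and 324 lower. Leaving out a library gave 193 to 1090 calls: 193, 194, 1090, 312 and 216 without WT replicate 1, WT replicate 2, ICOS KO replicate 1, ICOS KO replicate 2 and ICOS KO replicate 3. The cause was not tested. Deviations of libraries with the same number correlated at 0.0868, 0.0784 and 0.0643, above those of libraries with different numbers, at -0.0822 to 0.00651. No pairing was assumed in the main test, and a pairing of samples by number was not excluded. Of 136 recomputed fold changes of the 17 members 131 moved by less than the spread between libraries, the 5 others were those of Gm10503, and none changed sign. Members near 3 CPM rest on few reads.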

Other observations

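Below the level limit, between 1 and 3 CPM, 17 genes had the same gap with lower values in ICOS KO, each with reads in every WT library. With higher values 7 genes had it, 6 of them with reads in every ICOS KO library. They were picked by these values, at which a group holds few reads, so they are given as a description. The number of all genes at this level is not given here, so these counts have no share beside them. The lower genes include Fcer1a of the mast cell and basophil list, Hbb-bs of the erythroid list and Elane. Elane had 3.47 CPM in WT replicate 2 and 0.054 and 0.0668 CPM in WT replicates 1 and 3. Of the lower ones, Ncr1, which encodes the receptor NKp46 of natural killer cells, had 1.46, 1.23 and 1.67 CPM in the WT libraries, compared with 0, 0 and 0.0728 CPM in the others. Klrk1, which encodes the receptor NKG2D, had 2.05, 1.44 and 0.935 CPM in the WT libraries, compared with 0.257, 0.287 and 0 CPM in the others. Gzma, a killer cell protease gene on the same marker list as Ncr1, rose from 171 ± 26.3 to 560 ± 127 CPM (edgeR adjusted p = 0.000219). Cd70, the gene of the CD27 ligand, had 2.05, 1.01 and 1.4 CPM in the WT libraries, compared with 0.0643, 0 and 0.218 CPM in the others. The complement gene C3 had 2.65, 2.24 and 3.0 CPM in the WT libraries, compared with 0.708, 0.143 and 0.364 CPM in the others.

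Of the genes with higher values in ICOS KO at this level, some encode receptors. Hrh4, the gene of the histamine H4 receptor, had 0.216, 0.16 and 0 CPM in the WT libraries, compared with 1.54, 2.22 and 1.09 CPM in the others. Il5ra, which encodes the alpha chain of the interleukin-5 receptor, held 3 reads in WT and 44 in ICOS KO. Plxnb1, which encodes a semaphorin receptor, held 5 and 47 reads.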
